A study of Homo sapiens with 6 samples.

Results

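The genes described here encode the enzymes and carriers of glycolysis, of lactate production and transport, and of the pentose phosphate pathway. They also encode subunits of pyruvate dehydrogenase and the kinases that control it. These genes were chosen as a list of 39 symbols with earlier results of these data known. Shares of members set beside those of all genes therefore describe the list and do not test it. Of the 39 symbols, 37 had a row of that symbol among the 62016 genes of each table. The remaining 2 symbols, PKM2 and TIGAR, had no row: RefSeq gives PKM2 as a synonym of PKM, which was listed, and the gene of TIGAR was listed under its older symbol C12orf5. A gene counted as measured when it had passed the authors' filter for testing and the higher of its group values was at least 1 FPKM, a fragment count scaled to transcript length and library size. This held for 36 members with JMJD1C shRNA63 and for 37 with JMJD1C shRNA95. HK3, which stood at 0.106 and 0.340 FPKM in the shRNA63 table, made the difference, and it passed in the shRNA95 table only through its shRNA95 value of 1.95 FPKM. Separate rows for TPI1, ENO2 and PGK1 on patch sequences were listed at 0 and left out.

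RNA was sequenced from Kasumi-1, an established human acute myeloid leukemia line of myeloblast type that carries the AML1-ETO fusion. All cells had been infected with a virus expressing an shRNA and were collected on day 4: the groups were control shRNA, JMJD1C shRNA63 and JMJD1C shRNA95, with 2 libraries each. The viruses carried PLKO shRNA vectors, and the labels name no selection of infected cells. JMJD1C is a nuclear protein related to the histone H3K9 demethylases KDM3A and KDM3B, and the comparisons asked what its depletion changes. The authors' tables hold 1 FPKM value per group, so no value per library can be shown, and the data come from a single cell line with 2 hairpins. The authors also made a table of AML1-ETO shRNA against control shRNA from another series, with a single library on each side. Errors of log2 fold changes are the size of the authors' fold change over their test statistic, and 95% intervals were computed from these errors; neither stands in the tables themselves. Because values are per bulk sample, fewer cells of a type and less RNA per cell cannot be told apart.

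JMJD1C itself fell with shRNA63, to 45.1% of its control level of 30.4 FPKM (log2 fold change -1.15, error 0.30, q = 0.00214 in the authors' deposited table). The libraries labelled shRNA95 had 25.1 FPKM of it against 29.4 in the control, and that difference was not called (-0.23, error 0.30, q = 0.938 in the authors' deposited table). Directions given for these libraries therefore rest on their label. Read counts per library are unknown. The value of a single read, estimated from genes too low to be tested, put the depth of the shRNA63 group at 0.79 times its control and that of the shRNA95 group at 0.71 times. Of 8 myeloblast markers 7 had at least 1 FPKM in the controls, and their sum was 14911 FPKM with shRNA63 against 6106 in its control, and 8326 FPKM with shRNA95 against 5922. Most of that sum is PRTN3, ELANE and AZU1: with shRNA63 KIT fell from 245 to 134 FPKM (q = 0.00214 in the authors' deposited table) and CD34 stood at 68.5% of control, uncalled. MPO was listed at 0, with a status that marks a locus of too many fragments. All 4 erythroid markers were under 1 FPKM. The sum of 4 T cell markers, most of it CD3D, was 2.68 FPKM with shRNA63 (control 9.13) and 2.01 FPKM with shRNA95 (control 8.85). The sum of 4 B cell markers, most of it CD79B and with MS4A1 at 0, was 8.56 FPKM (control 13.4) and 9.61 FPKM (control 13.0), and that of 4 epithelial markers, most of it EPCAM, was 14.7 FPKM (control 15.1) and 17.1 FPKM (control 14.7). The part of these shifts in the results was not tested.

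Glycolysis splits glucose into pyruvate in a preparatory phase that spends ATP and a payoff phase that returns ATP and NADH. Pyruvate is then either reduced to lactate, which leaves the cell through monocarboxylate carriers, or oxidised to acetyl-CoA by the mitochondrial pyruvate dehydrogenase complex. The pentose phosphate pathway branches off at glucose 6-phosphate and supplies NADPH and ribose for nucleotide synthesis, and leukemic blasts are known for high glucose use.

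In the control cells the members spanned the whole range of expression. Of the 37 genes 17 had at least 100 FPKM and 7 had under 10 FPKM in the control group of the shRNA63 table. GAPDH, which oxidises glyceraldehyde 3-phosphate, was the highest at 3237 FPKM, followed by the enolase gene ENO1 at 1569 FPKM, the lactate dehydrogenase gene LDHB at 1238 FPKM and the aldolase gene ALDOA at 1174 FPKM. BSG, PGK1, TPI1 and LDHA also exceeded 500 FPKM, so 8 members lay above that level. The carriers and the regulated entry steps were lower: SLC2A3 stood at 57.9 FPKM, SLC2A1 at 31.7 FPKM, the hexokinase genes HK1 and HK2 at 149.5 and 37.0 FPKM, and the lactate carrier SLC16A1 at 104.5 FPKM. ENO2, PDK3, PFKFB4, PFKFB2 and SLC16A3 lay between 2.53 and 3.24 FPKM, and PFKM at 6.67 FPKM. Many of these genes (GAPDH, PGK1, LDHA, LDHB, ENO1, TPI1, PGAM1 and ALDOA among them) have processed pseudogenes in the genome, and 24 of the 37 share a locus with another annotated gene, so single values can include reads of such copies or neighbours.

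**Figure D1:**
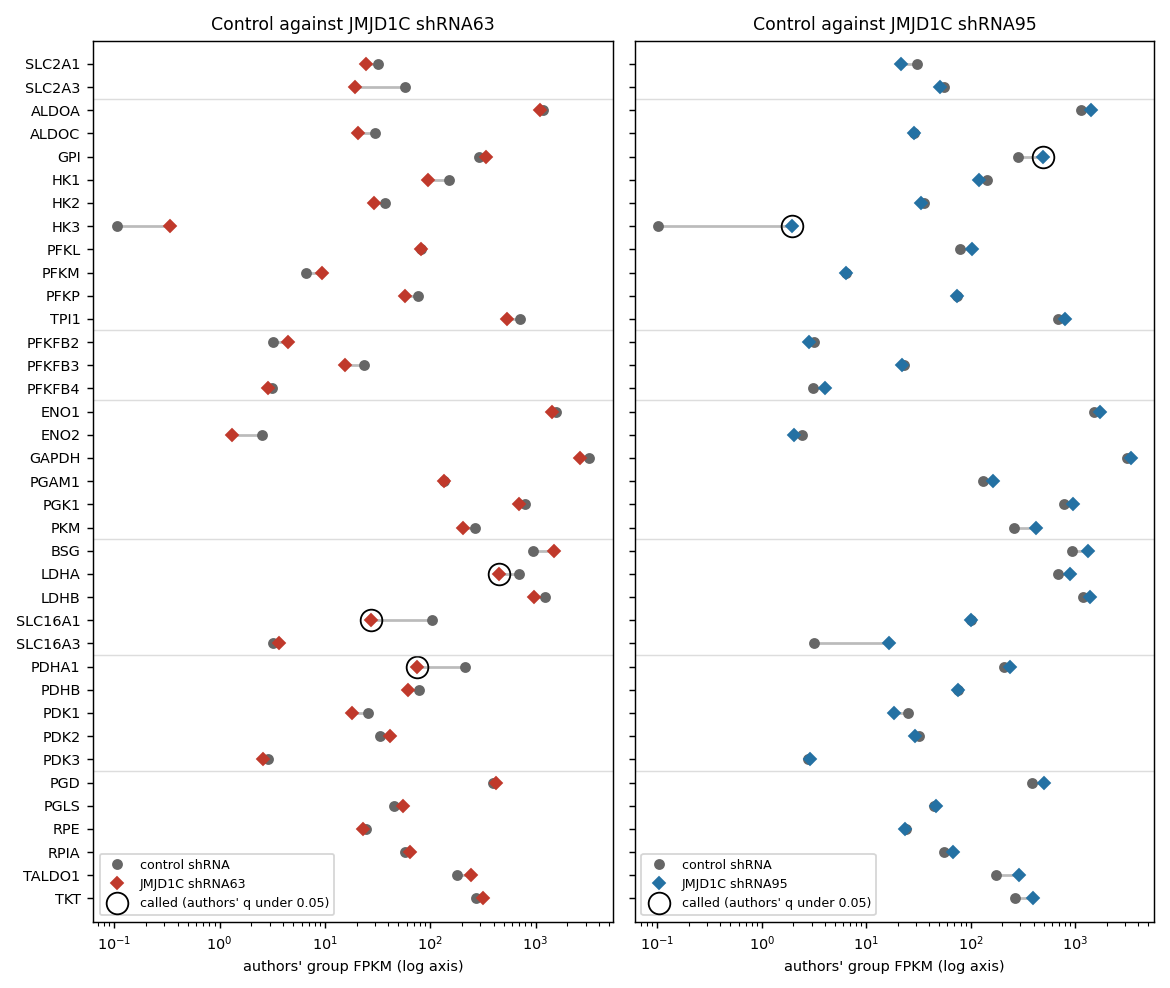
Authors' group FPKM of the 37 members (log axis), control shRNA as grey circles against JMJD1C shRNA63 (left) or shRNA95 (right) as diamonds; rings mark genes with the authors' q under 0.05, and grey lines separate roles in the pathway. SLC16A1, PDHA1 and LDHA are ringed on the left and GPI and HK3 on the right, and SLC16A1 stands at 27.6 against 104.5 FPKM on the left.

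With shRNA63 a lactate carrier, a subunit of pyruvate dehydrogenase and a lactate dehydrogenase fell, and no member was called higher. The authors' deposited table called 3 of the 36 measured members at a q under 0.05, or 8.33%, where it called 5.74% of 14475 measured genes. In the lower direction that was 8.33% of the members against 3.25% of all measured genes. For higher calls the members had 0 and all measured genes 2.49%. At an unadjusted p under 0.05 the authors' deposited table had 5 members lower, or 13.9%, and 1 higher, or 2.78%, where it had 7.39% of all measured genes lower and 6.99% higher, 14.4% together. The median log2 ratio, computed as log2((FPKM + 1)/(FPKM + 1)), was -0.17 over the members and 0.0087 over all measured genes, and 63.9% of the members were negative against 48.9% of all genes. Most single changes were small: 26 of the 36 log2 fold changes in the authors' deposited table were within 0.5 of 0, with a median error of 0.29 over the members.

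SLC16A1 encodes MCT1, a proton-coupled carrier of lactate and pyruvate across the plasma membrane. Its group value was 104.5 FPKM in the control and fell to 27.6 FPKM with shRNA63, 26.4% of that level. In the authors' deposited table this was a log2 fold change of -1.92 (error 0.25, 95% interval -2.42 to -1.42, q = 0.00214). By this value it ranked 41 among the 470 measured genes called lower. The gene (ENSG00000155380) lies on chromosome 1 in a locus from 113454469 to 113544813 in hg19, which it shares with RP11-31F15.1 at 1.93 FPKM and the pseudogene AKR7A2P1 at 0.186 FPKM in the control.

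PDHA1 encodes the E1 alpha subunit of pyruvate dehydrogenase, which decarboxylates pyruvate and is the target of the PDK kinases. From 215 FPKM in the control it fell to 74.5 FPKM, which is 34.7% of that level. Its log2 fold change was -1.53 (error 0.22, 95% interval -1.96 to -1.10, q = 0.00214) in the authors' deposited table. The gene (ENSG00000131828) lies on chromosome X in a locus from 19362011 to 19533379 in hg19, together with MAP3K15 at 7.19 FPKM in the control. PDHB, which encodes the E1 beta subunit that pairs with it, stood at 62.1 against 78.9 FPKM and was not called (q = 0.381 in the authors' deposited table). The ratio of PDHA1 to PDHB was 2.72 in the control and 1.20 with shRNA63, on the FPKM scale.

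LDHA, whose product reduces pyruvate to lactate, had 701 FPKM in the control and fell to 446 FPKM, 63.5% of that level. Its log2 fold change was -0.65 (error 0.28, q = 0.0195) in the authors' deposited table, a smaller change than that of SLC16A1 or PDHA1. LDHA (ENSG00000134333) lies on chromosome 11 from 18415935 to 18429972 in hg19. LDHB, the isozyme gene that was more abundant in these cells, stood at 971 against 1238 FPKM and was not called (log2 fold change -0.35, error 0.21, unadjusted p = 0.0465, q = 0.356 in the authors' deposited table). At the other end of the lactate group, BSG, which encodes basigin, a chaperone that takes MCT1 to the membrane, stood at 1491 against 953 FPKM, 156.5% of control. That difference missed the threshold (log2 fold change 0.65, error 0.27, q = 0.107 in the authors' deposited table), and the overlapping gene AC009005.3 stood at 925 against 597 FPKM, so reads may be split between both. SLC16A3, the carrier MCT4, was near its control value with a very wide error, at 3.69 against 3.24 FPKM.

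Glucose import showed lower values without a call. SLC2A3, the high-affinity carrier GLUT3, stood at 19.4 against 57.9 FPKM, 33.6% of control. The authors' deposited table gave it a log2 fold change of -1.57 (error 0.69), an unadjusted p of 0.00285 and a q of 0.0537, just above the threshold. Its locus holds 19 genes, among them the near-identical copy SLC2A14, which was at 0.0879 FPKM in the control. SLC2A1, the carrier GLUT1, stood at 24.5 against 31.7 FPKM (q = 0.565 in the authors' deposited table).

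In the preparatory steps 6 of 9 measured members had negative log2 ratios with shRNA63, and none was called. HK1, the main hexokinase gene here, stood at 95.2 against 149.5 FPKM (log2 fold change -0.65, error 0.52, q = 0.485 in the authors' deposited table). HK2 stood at 29.1 against 37.0 FPKM and the platelet-type phosphofructokinase gene PFKP at 57.7 against 77.0 FPKM, with q of 0.412 and 0.455 in the authors' deposited table. The liver-type gene PFKL was at 81.8 against 81.5 FPKM, ALDOA at 1111 against 1174 FPKM and the isomerase gene TPI1 at 535 against 713 FPKM. GPI, the isomerase that makes fructose 6-phosphate, was at 339 against 293 FPKM. ALDOC stood at 20.6 against 29.8 FPKM and PFKM at 9.32 against 6.67 FPKM, both with errors above 1 on the log2 scale.

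Of the 6 payoff genes 5 had negative ratios with shRNA63, and none was called. GAPDH stood at 2664 against 3237 FPKM, the phosphoglycerate kinase gene PGK1 at 695 against 802 FPKM, ENO1 at 1426 against 1569 FPKM and the pyruvate kinase gene PKM at 205 against 268 FPKM. PGAM1, a phosphoglycerate mutase, was the exception at 135.1 against 134.4 FPKM. The log2 fold changes of these 5 genes in the authors' deposited table ran from -0.38 for PKM to 0.0069 for PGAM1, with errors between 0.23 and 0.37. ENO2, the neuronal enolase, gave no usable value: its error was 5.77 at 1.30 against 2.53 FPKM.

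The genes that set fructose 2,6-bisphosphate, an activator of phosphofructokinase, were low and imprecise. PFKFB3 stood at 15.5 against 23.5 FPKM, PFKFB2 at 4.44 against 3.23 FPKM and PFKFB4 at 2.86 against 3.18 FPKM, with no call. The gene of TIGAR, a bisphosphatase that acts against them, stood under the symbol C12orf5 at 4.39 against 3.75 FPKM (q = 0.883 in the authors' deposited table); listed under that symbol, it is not among the 37 counted genes. Among the kinases that switch off pyruvate dehydrogenase, PDK1 stood at 17.9 against 26.0 FPKM, PDK2 at 41.3 against 33.1 FPKM and PDK3 at 2.57 against 2.86 FPKM, again with no call.

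Of the 6 pentose phosphate genes 5 had positive ratios with shRNA63, with a median of 0.20, and none was called. TALDO1, the transaldolase, stood at 243 against 181 FPKM, the transketolase gene TKT at 321 against 272 FPKM, and PGD, the dehydrogenase that releases ribulose 5-phosphate, at 420.4 against 396 FPKM. The lactonase gene PGLS stood at 54.9 against 45.5 FPKM and the isomerase gene RPIA at 64.6 against 57.4 FPKM. The epimerase gene RPE stood at 22.8 against 24.6 FPKM. The largest log2 fold change of the 6 in the authors' deposited table was 0.43 for TALDO1 (error 0.35, q = 0.518).

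**Figure D2:**
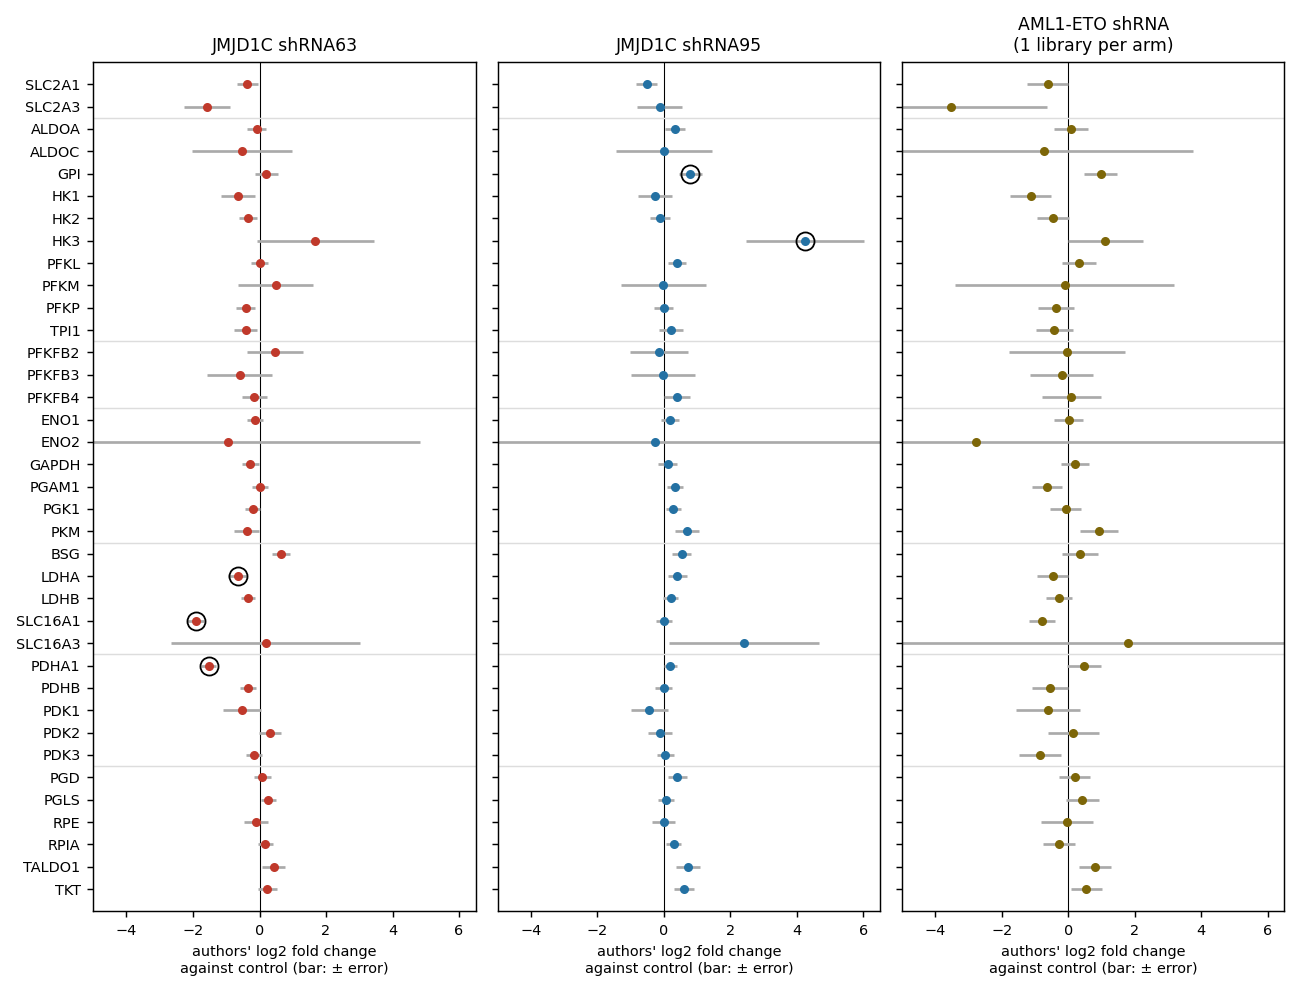
Authors' log2 fold changes of the 37 members against control for JMJD1C shRNA63, JMJD1C shRNA95 and AML1-ETO shRNA, bars showing plus and minus the error and rings the genes called at q under 0.05 among measured members; bars of ENO2, ALDOC, SLC2A3 and SLC16A3 that leave the axis are cut at its limits. The calls are SLC16A1 (-1.92), PDHA1 (-1.53) and LDHA (-0.65) in the left panel, GPI (0.80) and HK3 (4.25) in the middle panel and none in the right panel.

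In the libraries labelled shRNA95 an isomerase and a hexokinase rose, and no member was called lower. The authors' deposited table called 2 of 37 measured members, 5.41%, against 5.04% of 14391 measured genes; for higher calls alone the share of all measured genes was 3.06%. The share of members called is thus close to that of all genes, and 1 of the 2 entered the measured set only through its raised value. For lower calls the members had 0 and all measured genes 1.98%. At an unadjusted p under 0.05 the authors' deposited table had 8 members higher, or 21.6%, and 1 lower, or 2.70%, where it had 7.98% of all measured genes higher and 5.29% lower, 13.3% together. The median log2 ratio was 0.18 over the members and 0.032 over all measured genes, and 62.2% of the members were positive against 54.0% of all genes. In the authors' deposited table the log2 fold changes of 29 of the 37 were within 0.5 of 0.

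GPI (ENSG00000105220, chromosome 19, locus from 34850385 to 34919178 in hg19) rose from 284 to 494 FPKM, 173.8% of control. Its log2 fold change was 0.80 (error 0.35, 95% interval 0.12 to 1.47, q = 0.0173) in the authors' deposited table. HK3 (ENSG00000160883), a hexokinase gene of myeloid cells, rose from 0.103 to 1.95 FPKM. The authors' deposited table gave it 4.25 on the log2 scale (error 1.77, 95% interval 0.78 to 7.71, q = 0.0361). Its control value is close to 0, so the size of that fold is poorly fixed. With shRNA63, where it did not reach 1 FPKM, HK3 was at 0.340 against 0.106 FPKM.

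Several genes of glycolysis, of lactate handling and of the pentose phosphate pathway lay above control with unadjusted p under 0.05 but without a call. PKM stood at 418 against 259 FPKM (log2 fold change 0.69, error 0.37, q = 0.0895), TKT at 398 against 263 FPKM (0.60, error 0.30, q = 0.0659) and TALDO1 at 289 against 175 FPKM (0.72, error 0.36, q = 0.109) in the authors' deposited table. LDHA stood at 896 against 680 FPKM (0.40, error 0.28, q = 0.404), PFKL at 103 against 79.0 FPKM (0.39, error 0.28, q = 0.361) and BSG at 1341 against 923 FPKM (0.54, error 0.29, q = 0.312) in the authors' deposited table. PGD followed at 508 against 384 FPKM, RPIA at 68.2 against 55.7 FPKM and PGAM1 at 163 against 130.3 FPKM, with unadjusted p above 0.05. The gene of TIGAR, as C12orf5, stood at 5.16 against 3.63 FPKM (unadjusted p = 0.0345, q = 0.327 in the authors' deposited table). Ratios were positive for each of the 5 lactate genes, and their median was 0.40. SLC16A3 among them stood at 16.7 against 3.14 FPKM with an error of 2.25, too wide for a call (q = 0.522 in the authors' deposited table).

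SLC16A1 and PDHA1, which had the largest called changes with shRNA63, were close to or above control here. SLC16A1 stood at 101.8 against 101.3 FPKM, 100.4% of control, and PDHA1 at 239 against 208 FPKM, 114.7% of control. Their computed 95% intervals ran from -0.49 to 0.50 and from -0.20 to 0.59 on the log2 scale. The lowest unadjusted p among members below control was that of SLC2A1, at 21.5 against 30.8 FPKM (log2 fold change -0.52, error 0.33, unadjusted p = 0.0285, q = 0.290 in the authors' deposited table). SLC2A3 stood at 51.3 against 56.1 FPKM. HK1, HK2 and PDK1 stood at 83.1%, 92.5% and 73.8% of control, PDK2 and PDK3 at 92.1% and 103.4%, and PDHB at 99.2%. PFKP, PFKM, ALDOC, PFKFB3 and RPE were all between 97.6% and 99.7% of control. The remaining members lay between 83.4% for ENO2 and 130.5% for PFKFB4, with PFKFB2 at 90.0%, PGLS at 104.7% and GAPDH at 108.7%. ENO1 was at 113.0%, LDHB at 115.2%, TPI1 at 116.3%, PGK1 at 122.1% and ALDOA at 125.5%.

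The hairpins differed from each other for SLC16A1 and PDHA1. The difference of their log2 fold changes (shRNA63 minus shRNA95) was divided by its error and read as a normal deviate, with Benjamini-Hochberg adjustment over 13870 genes. An exact test cannot be made from 1 value per group. The difference passed for 2 of 36 members, 5.56%, against 1.08% of all genes. Both were lower with shRNA63, a direction in which 0.728% of all genes passed; 0.353% passed in the other. At an unadjusted p under 0.05 there were 4 members, all lower, beside 5.44% of all genes, of which lower ones made up 3.55% of all genes. For SLC16A1 the difference was -1.93 (error 0.36, 95% interval -2.63 to -1.22) with an adjusted p of 3.97e-05. For PDHA1 it was -1.73 (error 0.36, 95% interval -2.43 to -1.03) with an adjusted p of 0.000361. With errors taken from the deposited p, which stops at 5e-05, the adjusted p were 0.0237 for SLC16A1 and 0.0101 for PDHA1. Both comparisons share the control libraries, and the main error takes no account of that sharing.

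For LDHA the difference was -1.05 (error 0.40, 95% interval -1.84 to -0.27), which did not pass (adjusted p of 0.341). With errors that leave out the shared control part LDHA passed, at an adjusted p of 0.00791. That part was assumed to be an equal share of each variance and was not estimated. PKM differed by -1.07 (error 0.52, 95% interval -2.09 to -0.05), with an adjusted p of 0.830. SLC2A3 had a difference of -1.45, but its interval from -3.33 to 0.44 includes 0. The difference was negative for 30 of 36 members, 83.3%, against 54.1% of all genes, and its median was -0.38 against -0.039. BSG, SLC2A1, PGLS, PDK2, PFKM and PFKFB2 were the 6 with a positive difference, from 0.11 to 0.61, and all of their intervals include 0.

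**Figure D3:**
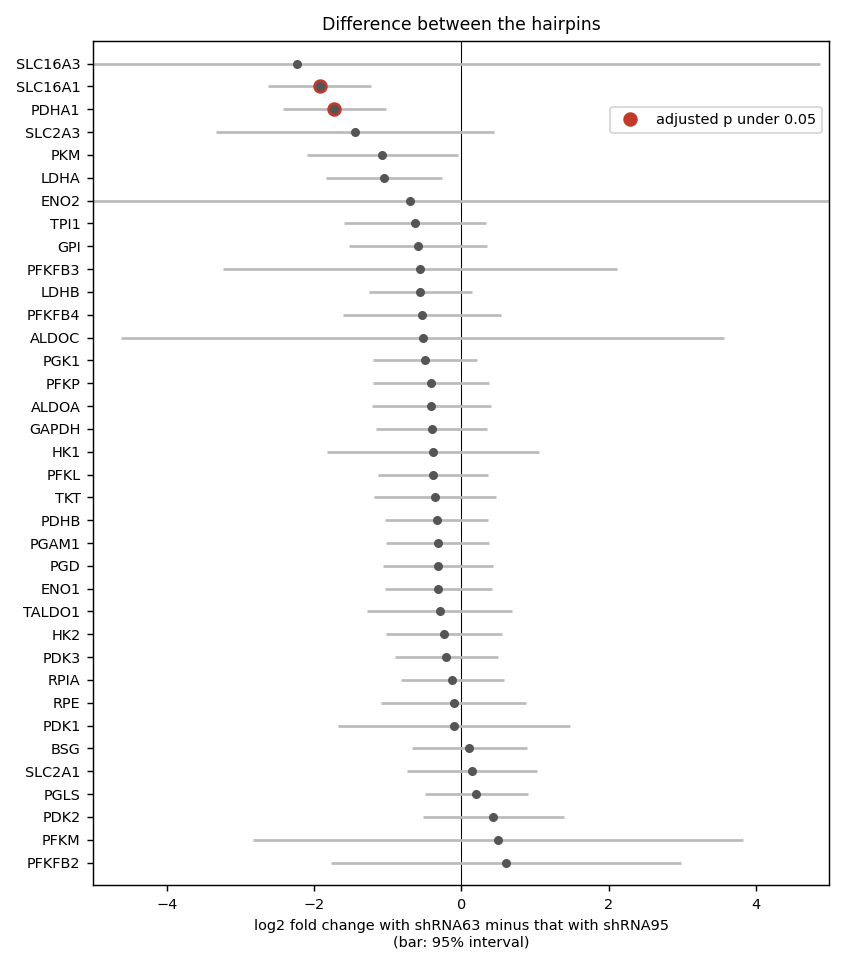
Difference between the hairpins for the 36 members tested, as the log2 fold change with shRNA63 minus that with shRNA95, bars showing 95% intervals (those of SLC16A3 and ENO2 are cut at the axis limits). SLC16A1 (-1.93) and PDHA1 (-1.73), in red, pass the adjusted threshold, and 4 members have an interval below 0.

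Isozyme proportions were computed from the FPKM of each family. LDHA made up 36.2% of the summed lactate dehydrogenase level in the control, 31.5% with shRNA63 and 39.3% with shRNA95, and the sum was 1416 FPKM with shRNA63 (control 1940) and 2279 FPKM with shRNA95 (control 1880). SLC2A3 was the major one of the pair of glucose carriers in the control, at 64.6%, and the minor one with shRNA63, at 44.3%, while with shRNA95 it held 70.5%. HK1 gave 80.1% of hexokinase FPKM in the control, 76.4% with shRNA63 and 77.4% with shRNA95, and HK3 made up only 1.25% in the shRNA95 group. The sum of hexokinases was 125 against 187 FPKM with shRNA63 and 156 against 181 FPKM with shRNA95. PFKL made up 49.3% of phosphofructokinase in the control, 55.0% with shRNA63 and 56.1% with shRNA95, and PFKP correspondingly less. SLC16A1 held 97.0% of the summed SLC16A1 and SLC16A3 level in the control, 88.2% with shRNA63 and 85.9% with shRNA95; with shRNA63 the sum itself was 31.3 against 107.7 FPKM. These proportions come from single group values and carry no error.

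**Figure D4:**
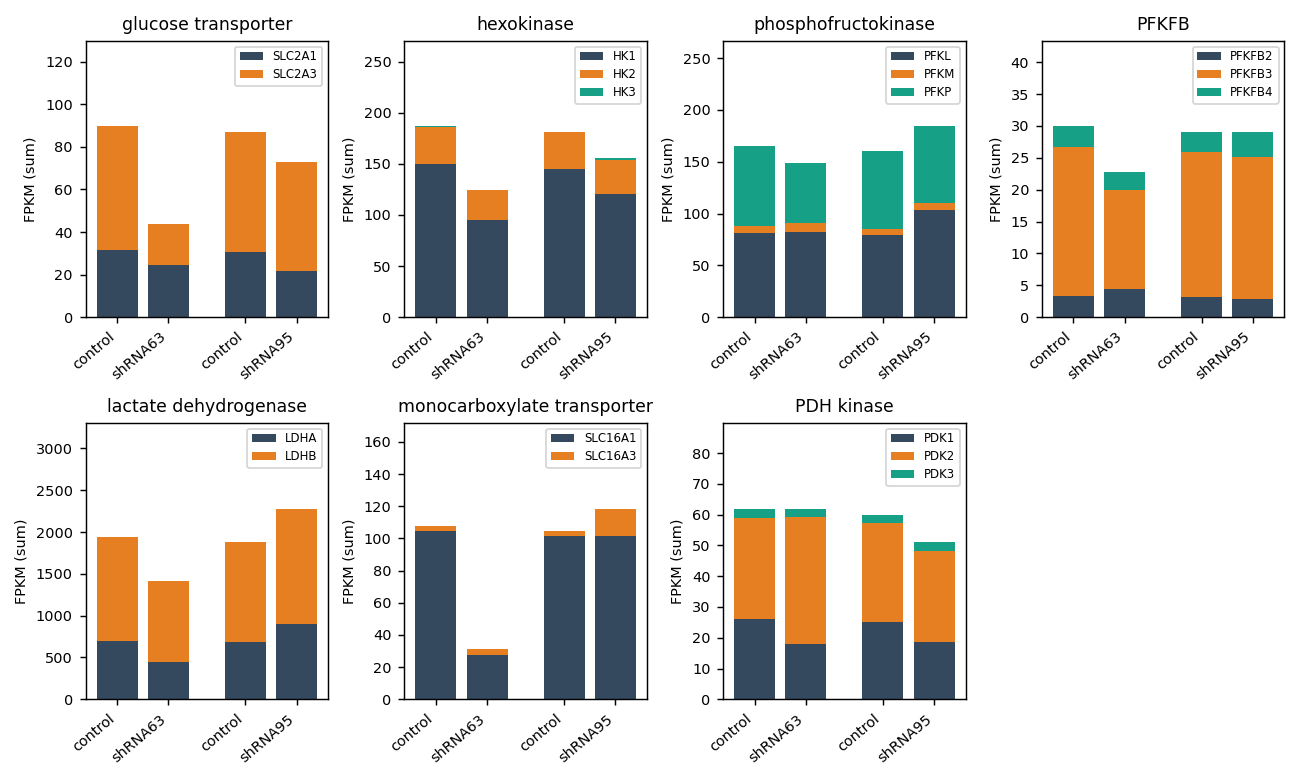
Summed group FPKM of 7 isozyme or carrier families, stacked by gene, for the control and shRNA groups of each table. The summed SLC16A1 and SLC16A3 bar is 31.3 FPKM with shRNA63 against 107.7 in its control, and the lactate dehydrogenase bar is below its control with shRNA63 (1416 against 1940 FPKM) and above it with shRNA95 (2279 against 1880 FPKM).

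Genes that work directly with SLC16A1 and PDHA1, taken from related lists, were examined beside them. EMB, which encodes embigin, another partner of monocarboxylate carriers, fell from 57.2 to 35.4 FPKM with shRNA63 (log2 fold change -0.69, error 0.28, q = 0.0111 in the authors' deposited table). With shRNA95 it stood at 72.1 against 55.4 FPKM (q = 0.443 in the authors' deposited table), and the difference between hairpins of -1.07 did not pass, at an adjusted p of 0.331. PDHX, the component that anchors E3 in the pyruvate dehydrogenase complex, fell from 34.6 to 18.3 FPKM with shRNA63 (-0.92, error 0.39, q = 0.0424 in the authors' deposited table). DLAT, the E2 subunit, stood at 31.0 against 52.3 FPKM (-0.75, error 0.43, unadjusted p = 0.0132, q = 0.161) and DLD, the E3 subunit, at 76.6 against 99.7 FPKM (q = 0.619) in the authors' deposited table. All 5 subunit genes of the complex were thus below control with shRNA63, 2 of them by a call; among the 32 measured genes of the list on pyruvate entry and the citrate cycle, which holds 3 of the 5, 25 had negative ratios, where 48.9% of all measured genes did. With shRNA95 the same genes had log2 fold changes between -0.13 for PDHX and 0.20 for PDHA1 in the authors' deposited table, none called. The differences between hairpins for PDHX and DLAT were -0.79 and -0.86 and did not pass, with unadjusted p of 0.146 and 0.148. The phosphatase genes PDP1 and PDP2 and their regulator PDPR, which reverse the PDK kinases, were not called with either hairpin, nor were the mitochondrial pyruvate carrier genes MPC1 and MPC2.

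**Figure D5:**
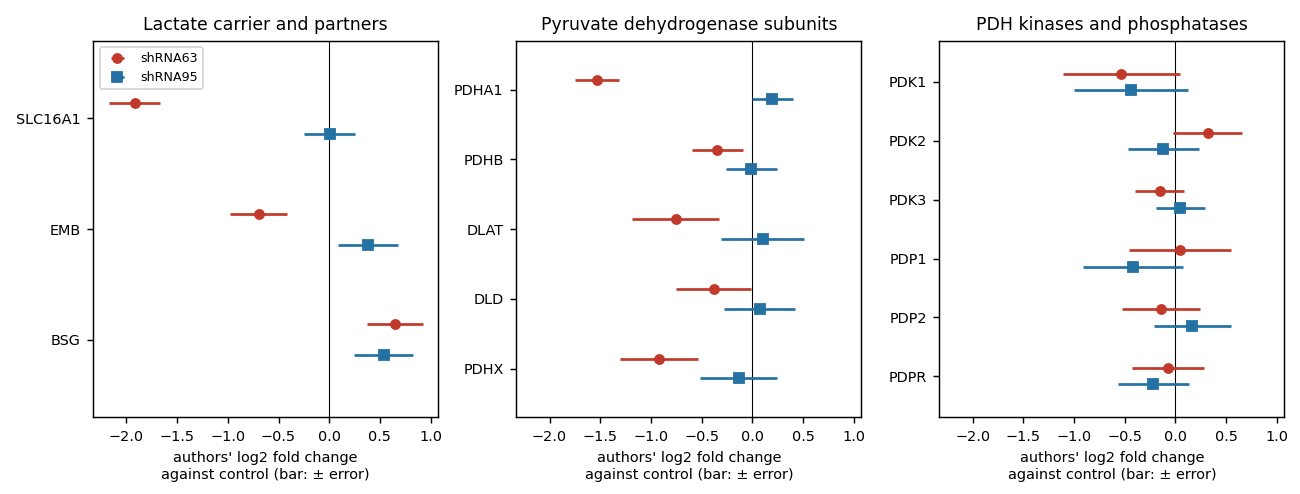
Authors' log2 fold changes with shRNA63 (red circles) and shRNA95 (blue squares), bars showing plus and minus the error, for SLC16A1 with its partner genes EMB and BSG, for the 5 pyruvate dehydrogenase subunit genes, and for the genes that phosphorylate and dephosphorylate the complex. The subunit genes lie between -1.53 and -0.35 with shRNA63 and between -0.13 and 0.20 with shRNA95.

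In the related lists of central carbon metabolism, calls with shRNA63 are to be read against 5.74% of all measured genes, 2.49% higher and 3.25% lower. At an unadjusted p under 0.05 the authors' deposited table had 14.4% of all measured genes, 6.99% higher and 7.39% lower. Of 19 other carriers and isoforms 1 was called higher and 2 lower in the authors' deposited table. H6PD, which starts the pentose phosphate reactions inside the endoplasmic reticulum, rose from 3.18 to 6.25 FPKM, and EMB and SLC2A6 fell. Of 32 genes of pyruvate entry and the citrate cycle 1 was higher and 1 lower: ME1, the cytosolic malic enzyme that makes NADPH, rose from 1.36 to 3.05 FPKM, and PDHX fell. Of 28 genes of hexosamine, glycogen and sugar conversion 0 were called by Cuffdiff (1 higher and 3 lower at an unadjusted p under 0.05 in the authors' deposited table). Of 19 regulators of glycolytic genes DDIT4, an inhibitor of mTORC1, was called, from 39.2 to 16.8 FPKM. HIF1A, the oxygen-regulated activator of glycolytic genes, stood at 56.5 against 68.6 FPKM and was not called.

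With shRNA95, calls in the same lists are to be read against 5.04% of all measured genes, 3.06% higher and 1.98% lower. At an unadjusted p under 0.05 the authors' deposited table had 13.3% of all measured genes, 7.98% higher and 5.29% lower. Of 28 genes of hexosamine, glycogen and sugar conversion 4 were called higher and 0 lower in the authors' deposited table. PGM1, a phosphoglucomutase that links glycogen to glucose 6-phosphate, rose from 37.0 to 71.4 FPKM, the glycogenin gene GYG1 from 32.1 to 57.9 FPKM and the glucose 6-phosphatase gene G6PC3 from 60.2 to 102.7 FPKM. Their log2 fold changes in the authors' deposited table were 0.95, 0.85 and 0.77. None of these 3 passed the test of the difference between hairpins; the differences were -1.07, -0.51 and -0.55. Of 20 other carriers and isoforms the fructose carrier gene SLC2A5 was called higher, from 11.5 to 26.3 FPKM. Of 32 genes of pyruvate entry and the citrate cycle 0 were called by Cuffdiff (4 higher and 2 lower at an unadjusted p under 0.05), and of 19 regulators 0 were called (0 at an unadjusted p under 0.05 as well) in the authors' deposited table.

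In the AML1-ETO comparison no member was called. The authors' deposited table called 0 of 37 tested members, where it called 0.373% of 21727 tested genes with a finite fold change, 0.198% higher and 0.175% lower. At an unadjusted p under 0.05 it had 1 member higher and 1 lower, 2.70% each, where it had 2.32% and 2.63% of all genes, 4.95% together. Those were GPI with a log2 fold change of 0.98 (error 0.50, unadjusted p = 0.0373) and HK1 with -1.13 (error 0.61, unadjusted p = 0.0395), both in the authors' deposited table. The authors' deposited table gave SLC16A1 a log2 fold change of -0.79 (error 0.39, q = 0.916), PDHA1 0.48 (error 0.52), LDHA -0.47 (error 0.46) and PKM 0.92 (error 0.58). SLC2A3 had -3.52 with an error of 2.87 in the authors' deposited table. The median log2 fold change was -0.077 over the members and -0.014 over all genes in the authors' deposited table. The median error of the members was 0.53 in this table, which compares 2 libraries and has no replicate check. A related gene, the gluconeogenic FBP1, was called higher there, with 3.70 (error 0.84, q = 0.0178) in the authors' deposited table.

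The sequences before the starts of the called members LDHA, PDHA1 and GPI are shown for short motifs long linked to glycolytic genes. These are ACGTG, the core of the hypoxia response element, and CACGTG, the E-box bound by the MYC and MAX family, which contains it. Both were searched on both strands in the 250 bases before each start in RefSeq (GRCh38.p14), where 35 members had 64 start windows. ACGTG was found in 35.9% of the members' windows and in 18.5% of all 35116 windows, and CACGTG in 14.1% and 6.34%. Counted by gene, with any of its windows, ACGTG was found for 57.1% of the 35 members and 21.7% of 27305 genes, and CACGTG for 25.7% and 7.73%. The members had more windows per gene (64 for 35) than all genes (35116 for 27305), which favours the members in that count. The members' windows were richer in G and C, with a median of 68.4% against 58.0%. Among 12740 windows with 57.9% to 72.5% G and C, the middle range of the members, 23.1% held ACGTG and 8.82% held CACGTG. The members' own shares within that range were not computed. Their 35.9% and 14.1% include windows outside it, so they are not directly comparable with these shares. The windows of LDHA (chr11:18394313-18394562), PDHA1 (chrX:19343677-19343926) and GPI (chr19:34364742-34364991), all on the plus strand and each the first listed for its gene, read as follows 5′ to 3′, with bases of ACGTG on either strand in capitals.
LDHA: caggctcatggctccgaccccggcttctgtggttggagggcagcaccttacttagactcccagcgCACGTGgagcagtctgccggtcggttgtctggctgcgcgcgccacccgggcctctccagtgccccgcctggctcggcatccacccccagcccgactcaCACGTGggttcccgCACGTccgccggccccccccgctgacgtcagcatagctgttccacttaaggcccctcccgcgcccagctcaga
PDHA1: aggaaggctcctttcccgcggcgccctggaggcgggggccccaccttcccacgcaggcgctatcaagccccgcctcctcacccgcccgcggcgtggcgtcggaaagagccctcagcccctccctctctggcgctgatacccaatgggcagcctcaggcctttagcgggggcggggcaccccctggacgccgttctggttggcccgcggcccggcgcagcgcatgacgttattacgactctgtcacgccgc
GPI: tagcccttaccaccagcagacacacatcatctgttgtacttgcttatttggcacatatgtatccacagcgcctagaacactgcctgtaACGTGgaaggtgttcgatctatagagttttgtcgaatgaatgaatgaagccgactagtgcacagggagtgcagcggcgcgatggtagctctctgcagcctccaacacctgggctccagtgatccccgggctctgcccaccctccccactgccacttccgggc

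The LDHA window held 2 E-boxes, which begin 185 and 87 bases before the start, and a further ACGTG on the opposite strand that begins 73 bases before it. The GPI window held 1 ACGTG, 162 bases before the start, and no E-box. The PDHA1 window, although it is 71.6% G and C, held neither motif. HK3, also a called member, has a window at chr5:176899347-176899596 on the minus strand. It is 48.4% G and C, held neither motif and is not shown. The bases after its start matched no transcript of the gene in GENCODE, another annotation. Of the 64 windows 50 had such a match, those shown for LDHA, PDHA1 and GPI among them. A second listed start of LDHA, with its window at chr11:18396101-18396350, held neither motif. A match to such short letters is a description of the sequence, and binding was not measured.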

How the data were processed

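RNA-seq of 6 libraries (3 groups of 2) was used through 3 tables of group comparisons. Nothing in the labels says that the libraries of a group were separate cultures. The spread between libraries that enters the p-values of the JMJD1C comparisons may therefore be a technical one. With a single library on each side, the AML1-ETO p-values hold no spread between replicates. TopHat2 2.0.8b, Cuffdiff 2.1.1 and hg19 are listed in the submitters' processing notes, with no role or order. The authors deposited 1 FPKM per group and gene, per the file headers. A strand setting for counting is not stated in the sources used here. The log2 fold change, the test statistic (a score per gene), and the p-value with its q-value are the authors' as deposited. From the AML1-ETO table, 2 columns of FPKM belong to another series and were not used, so members entered that comparison by test status. Read as normal deviates, the deposited p-values exceed the statistic (median ratio 1.41 in both JMJD1C tables, 1.04 in the other), so errors taken from the statistic are at the median the wider reading. For SLC16A1 and PDHA1 with shRNA63 they are the narrower one, since both p-values stand at the smallest deposited value, 5e-05.

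From these values, calls (q under 0.05, tested, higher group value of 1 FPKM or more), errors, ratios with a pseudocount of 1, shares and differences between hairpins were computed with Python 3.11.15, pandas 2.3.3 and scipy 1.17.1. For the difference, each error was first raised to the 10th percentile of all genes where smaller. The difference was then divided by the root of the summed squared errors and read as a two-sided normal deviate. A run on simulated data drew independent normal noise from these same errors, so it cannot check the errors themselves. Intervals are 95% normal ones. The control FPKM was 1.03 times higher in the shRNA63 table at the median, so levels were compared within a table. Members and lists were chosen with earlier results of these data known. All members are accounted for. Those called, with an unadjusted p under 0.05 or differing between hairpins are given in full, the others by level or percent of control. Locus positions were converted to count from 1. Promoters are RefSeq's; SLC16A1 had no entry. Of the related and marker genes, 2 are not reported here by name. Alternatives covered thresholds, filters, the pseudocount and the errors.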

Additional observations from a re-analysis of the deposited data

Results flagged for a closer look

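For 2 members the effect of shRNA63 and that of shRNA95 differed by the test of the difference itself. SLC16A1 had a log2 fold change with shRNA63 minus that with shRNA95 of -1.93 (adjusted p of 3.97e-05), from values of 26.4% and 100.4% of control. PDHA1 had a difference of -1.73 (adjusted p of 0.000361), from values of 34.7% and 114.7% of control. With errors from the deposited p, which stops at 5e-05, the adjusted p were 0.0237 for SLC16A1 and 0.0101 for PDHA1. JMJD1C mRNA stood at 45.1% of control with shRNA63 and at 85.3% with shRNA95, and its part in these differences was not tested.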

How the results depend on the processing

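With shRNA63, SLC16A1 and PDHA1 stayed called in each alternative run, the count of called members was 2 at a q under 0.01 (LDHA lost) and 4 with p adjusted over measured genes only (SLC2A3 added), and it was 3 under both other filters on FPKM. The members' median of -0.17 moved to -0.28 with a filter of at least 5 FPKM, which drops low members. With shRNA95, 0 members were called at a q under 0.01, since both calls lie above it, and 1 with a filter of at least 5 FPKM, which removes HK3. The AML1-ETO count was 0 in both alternatives. Between hairpins SLC16A1 and PDHA1 passed under each reading of the error, least clearly with errors from the deposited p (adjusted p of 0.0237 and 0.0101), and LDHA and EMB passed as well with errors from the deposited p (adjusted p of 0.0210 for LDHA), with the shared control part removed (0.00791) and with errors scaled to the deposited p, an alternative chosen after seeing the data (0.00817). The shared control part was assumed to be an equal share of each variance and was not estimated. Over all genes 150 passed, against 208, 587 and 585 in those 3 alternatives for the error and 297 with errors as computed. No paired analysis was possible because each group has a single combined value, so no replicate could be left out either. Depth per library is unknown, and members under 10 FPKM had errors up to 7.26 on the log2 scale.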
